A study of Mus musculus with 13 samples.

Results

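This account covers 39 genes of DNA replication and S phase, measured by 41 probe sets among the 19934 genes that the array's annotation names singly. They were chosen by gene symbol. Where a gene had several probe sets, that with the highest mean over arrays was read, which applied to Pcna and Tk1 (2 each). All 39 passed the level filter, a log2 intensity above 5 on at least 3 of the 13 arrays, as did 15875 genes in all. Orc1 stood above that level on 4 arrays and Ccne2 on 5, so both were read near the bottom of the measured range.

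Epithelium freed with dispase from mice of mixed C57Bl/6 and 129 background was profiled on Affymetrix arrays, in which labelled RNA is read as the brightness of gene-specific probes. Every animal carried L2-Cre, a Cre transgene that is known to act in the squamous epithelium of the mouth, esophagus and forestomach. The control esophagus and control forestomach groups (Cre/p120 +/+) each held the same 3 animals, 214, 216 and 217. The flox/flox groups (Cre/p120 flox/flox), in which Cre can remove p120-catenin, held esophagus of animals 193, 307, 313 and 335 and forestomach masses of 3 other animals, 412, 426 and 510. Ages are not given in the labels. Flox/flox forestomach was sampled only as masses, so genotype and the formation of a mass cannot be told apart there. The values are log2 of the deposited GCRMA intensities. The 13 arrays limit the precision, and p-values measure the spread between these animals.

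Chromosomes are copied in steps. The origin recognition complex, Cdc6 and Cdt1 load the ring-shaped MCM helicase onto DNA before S phase. Mcm10, Cdc45 and the GINS complex switch it on, and primase, polymerases, the sliding clamp Pcna and its loader then copy both strands. In stratified squamous epithelium this work is known to be done by basal and lowest suprabasal cells, while the layers above have left the cycle. Genes of this programme are classical targets of E2F transcription factors. These are released when cyclin kinases, among them that of cyclin E, act on the retinoblastoma protein.

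Some whole-series facts bear on these genes. Per array the median intensity ranged from 65.3 to 72.4. Ctnnd1, the gene of p120-catenin, was 10.21 to 10.50 in control and 9.95 to 10.13 in flox/flox esophagus, and 10.14 to 10.40 in control forestomach and 9.51 to 9.91 in masses. The fall in masses passed the test (-0.56, SE 0.12, limma adjusted p = 0.0145), and the lower level in flox/flox esophagus did not (-0.29, SE 0.11, adjusted p = 0.637). Basal squamous markers (9 genes, mean 9.63 to 10.74) and squamous differentiation markers (11 genes, mean 11.93 to 12.68) were high on every array. Skeletal muscle markers had a mean of 8.19, 7.89 and 9.39 in esophagus control 214 and flox/flox 307 and 335, with 10 of 10 above log2 5, and 5.35 to 5.59 on the other esophagus arrays, where Myh1, Myh4 and Myl1 were not above that level. Fibroblast and matrix markers were high on the same 3 esophagus arrays (9.60 to 10.90, against 6.74 to 6.94). In bulk tissue, fewer cells of a type and less RNA per cell cannot be told apart.

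Since E2F factors bind the letters TTTGGCGC and TTTCGCGC, both strands of the members' promoters were searched for them in RefSeq sequence (GRCm38.p6, 250 bases before to 50 bases after each annotated start). Windows were found for 32 of the 39 members, and 11 of these 32 (34.4%) held at least 1 match, against 1.21% of 17492 protein-coding genes. The 11 were Cdt1, Dnmt1, Lig1, Mcm3, Mcm5, Mcm6, Mcm7, Orc1, Pola1, Rfc3 and Uhrf1. Base composition was not matched in this share. A match is a stretch of letters, and no binding was measured. In Cdt1, Lig1, Mcm3 and Mcm7 the matches lay after the start site, as did 1 of 2 in Dnmt1. The 7 genes with a match before the start are shown as 80 bases of the gene's own strand, 5′ to 3′, with the matching letters in capitals. They are printed because members with these letters had a larger median gap between masses 412 and 426 than those without, which was not tested.
Mcm6: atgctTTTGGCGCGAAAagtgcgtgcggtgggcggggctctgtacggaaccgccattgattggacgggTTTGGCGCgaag
Mcm5: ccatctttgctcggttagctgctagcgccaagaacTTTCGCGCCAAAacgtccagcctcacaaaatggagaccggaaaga
Orc1: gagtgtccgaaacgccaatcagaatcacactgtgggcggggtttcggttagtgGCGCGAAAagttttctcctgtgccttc
Pola1: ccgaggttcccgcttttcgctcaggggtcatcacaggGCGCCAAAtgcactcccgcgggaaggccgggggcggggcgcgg
Rfc3: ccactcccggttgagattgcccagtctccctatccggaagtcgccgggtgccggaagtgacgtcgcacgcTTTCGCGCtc
Uhrf1: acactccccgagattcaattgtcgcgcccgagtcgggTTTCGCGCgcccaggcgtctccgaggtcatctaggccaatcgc
Dnmt1: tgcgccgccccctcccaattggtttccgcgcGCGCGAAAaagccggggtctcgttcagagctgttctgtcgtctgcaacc

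The Mcm6 stretch (chr1:128359741-128359820, minus strand) holds 3 matches, of which TTTGGCGC and a reverse-strand TTTCGCGC overlap in 1 capital run. The Mcm5 stretch (chr8:75109321-75109400, plus strand) likewise holds 2 overlapping matches. The other 5 hold 1 each, at chr4:108579374-108579453 (Orc1, plus strand), chrX:93632251-93632330 (Pola1, minus strand), chr5:151651209-151651288 (Rfc3, minus strand), chr17:56304091-56304170 (Uhrf1, plus strand) and chr9:20952794-20952873 (Dnmt1, minus strand). Of other cell cycle promoter letters, CCAAT was found in 59.4% of members with a window and 42.3% of protein-coding genes, and TTTGAA in 15.6% and 18.5%.

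The replication genes differed far more between animals of a flox/flox group than between the group means. On the heat map of all 39 genes, flox/flox esophagus 313 and forestomach mass 412 stood high in nearly every row, whereas flox/flox esophagus 307 and 335 and mass 426 lay below the control mean by median (-0.15, -0.11 and -0.25). In 313, 36 of 39 members stood above all 3 controls of the tissue and in 412 also 36, against 28.7% and 35.8% of all genes, while 28 members stood below all controls in 426 (42% of all genes). The mean over the 39 genes was 7.58 in esophagus 313, 7.24 in 193, 6.96 in 335 and 6.89 in 307. Control esophagus lay at 6.95, 6.99 and 7.25 for animals 217, 216 and 214. Among masses the mean was 7.89 in 412, 7.35 in 510 and 6.90 in 426, and in control forestomach it was 7.07, 7.17 and 7.19 for animals 214, 217 and 216. Controls thus lay inside the range of the flox/flox arrays in both tissues.

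**Figure D1:**
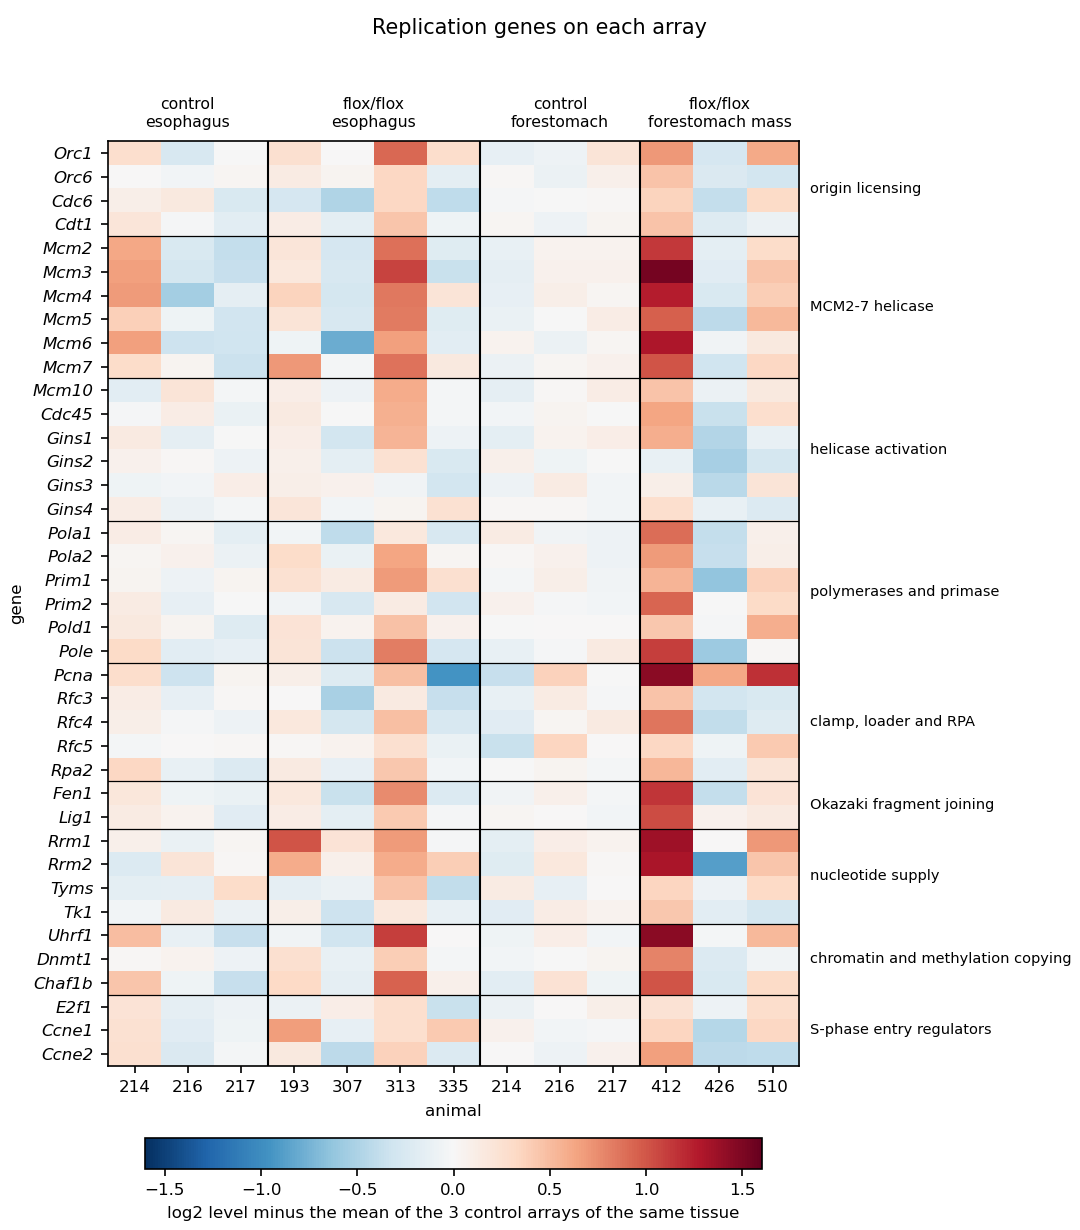
Heat map of the 39 replication genes (rows, by role) on the 13 arrays (columns, by group and animal). Colour is the log2 level minus the mean of the 3 control arrays of the same tissue, and flox/flox esophagus 313 and mass 412 are red in nearly every row.

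Mass 412 was the highest of the 3 masses in 35 of 39 genes, where 35.9% of all tested genes were highest in that array. Mass 426 was the lowest in 36 of 39, against 34.9% of all genes. Every member was higher in 412 than in 426, by 0.31 to 2.19 with a median of 0.99, while the median over all genes was 0.02. The full order of 412 over 510 over 426 held in 32 members and in 19% of all genes. Flox/flox esophagus 313 was the highest of 4 in 35 of 39 members (30.4% of all genes) and exceeded 307 by a median of 0.60 (0.03 over all genes). Gins3 was the only member lower in 313 than in 307, at 6.23 and 6.36.

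The spread within groups shows the same. The median SD of a member was 0.53 among masses and 0.33 in flox/flox esophagus, against 0.25 and 0.15 for all genes. It was 0.18 in control esophagus and 0.10 in control forestomach, against 0.14 and 0.11. In masses 36 of 39 members, and in flox/flox esophagus 38 of 39, had an SD above the median gene. The difference in spread was not tested.

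Levels of other cells' markers on these arrays did not follow that order throughout. Leukocyte markers (12 genes on the array) had a mean of 7.81, 7.67 and 6.90 in masses 412, 510 and 426, the order of the replication genes there. They stood at 5.98 to 6.45 in control forestomach. Of the 12, 11 were above log2 5 in masses 412 and 426 and 10 in 510, Cd79a being below that level on every array. In flox/flox esophagus the leukocyte mean was 8.40 and 7.59 in 193 and 335, and 6.84 and 6.19 in 313 and 307. There the order was not that of the replication genes, which were highest in 313. Fibroblast and matrix markers had a mean of 9.15, 9.45 and 7.60 in masses 412, 426 and 510, against 6.69 to 7.78 in control forestomach. In flox/flox esophagus they stood at 9.60 and 10.09 in 307 and 335, the arrays with the lowest replication genes, and at 6.91 and 6.74 in 193 and 313. Between masses and control, 8 of 8 fibroblast and 6 of 6 endothelial markers had differences above 0 (medians 1.80 and 1.5, 0 called). Of 11 leukocyte markers tested, 10 lay above 0 (median 1.04), and S100a8 and S100a9 were called higher. Squamous differentiation markers had differences below 0 in 11 of 11 (median -0.42, 3 called lower). Of all genes, 51% lay above 0, 2.31% were called higher and 8.4% lower. The part of these cells in the levels of replication genes was not tested.

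In the esophagus, 0 of 39 members differed between flox/flox and control epithelium by limma at an adjusted p under 0.05, where 0.0126% of the 15875 genes tested did. At an unadjusted p under 0.05 there were 0 members, against 6.98% of all genes (2.71% higher and 4.27% lower). Limma with trend and robust estimation gave 0 members at either threshold (0.0126% of all genes adjusted and 7.05% unadjusted). Fitted on the esophagus arrays alone, 2 of 38 members tested had an unadjusted p under 0.05 (9.43% of all genes). Without mass 426 there was 1 (8.45% of all genes). The changes ran from -0.21 to 0.47 with a median of 0.10 (0.01 over all genes), and 27 of 39 lay above 0 (51.6% of all genes). The smallest adjusted p of a member was 0.837. The median was -0.04 without flox/flox 313, with 14 of 39 genes above 0 (49.5% of all genes). It was 0.17 without control 214 or without flox/flox 335, 0.19 without flox/flox 307, and 0.05 and 0.04 without control 216 or 217. Without the 3 arrays with high muscle genes, a setting chosen after seeing the data, the median was 0.40 and 38 of 39 lay above 0 (50.4% of all genes). Again 0 members were called (0.00635% of all genes), and 6 had an unadjusted p under 0.05 (5.93% of all genes). That setting leaves 2 arrays against 2 and drops the control array with the highest mean over the members (214) and the flox/flox arrays with the lowest (307 and 335).

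In the forestomach, 0 of 39 members differed between masses and control epithelium at an adjusted p under 0.05 by limma, in a comparison where 10.7% of all genes did (2.31% higher and 8.4% lower). At an unadjusted p under 0.05 there were 3 members, Pcna and Rrm1 higher and Gins2 lower, which is 7.69% against 24.8% of all genes (8.64% higher and 16.2% lower). The changes ran from -0.31 to 1.08 with a median of 0.19 (0.01 over all genes), and 31 of 39 lay above 0 (51% of all genes). Without mass 412 the median was -0.04 and 19 lay above 0 (50% of all genes). Without mass 426 it was 0.45, 38 lay above 0 (53.8% of all genes), and 4 genes, Pold1, Pcna, Rrm1 and Rrm2, were called higher, where 11.6% of all genes were called. The fit pools 1 spread over groups, and spread was widest in masses, so p-values there can be too small. In comparisons without masses they can be too large. Fitted on the forestomach arrays alone, 0 of 38 members tested were called, where 2.95% of all genes were.

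**Figure D2:**
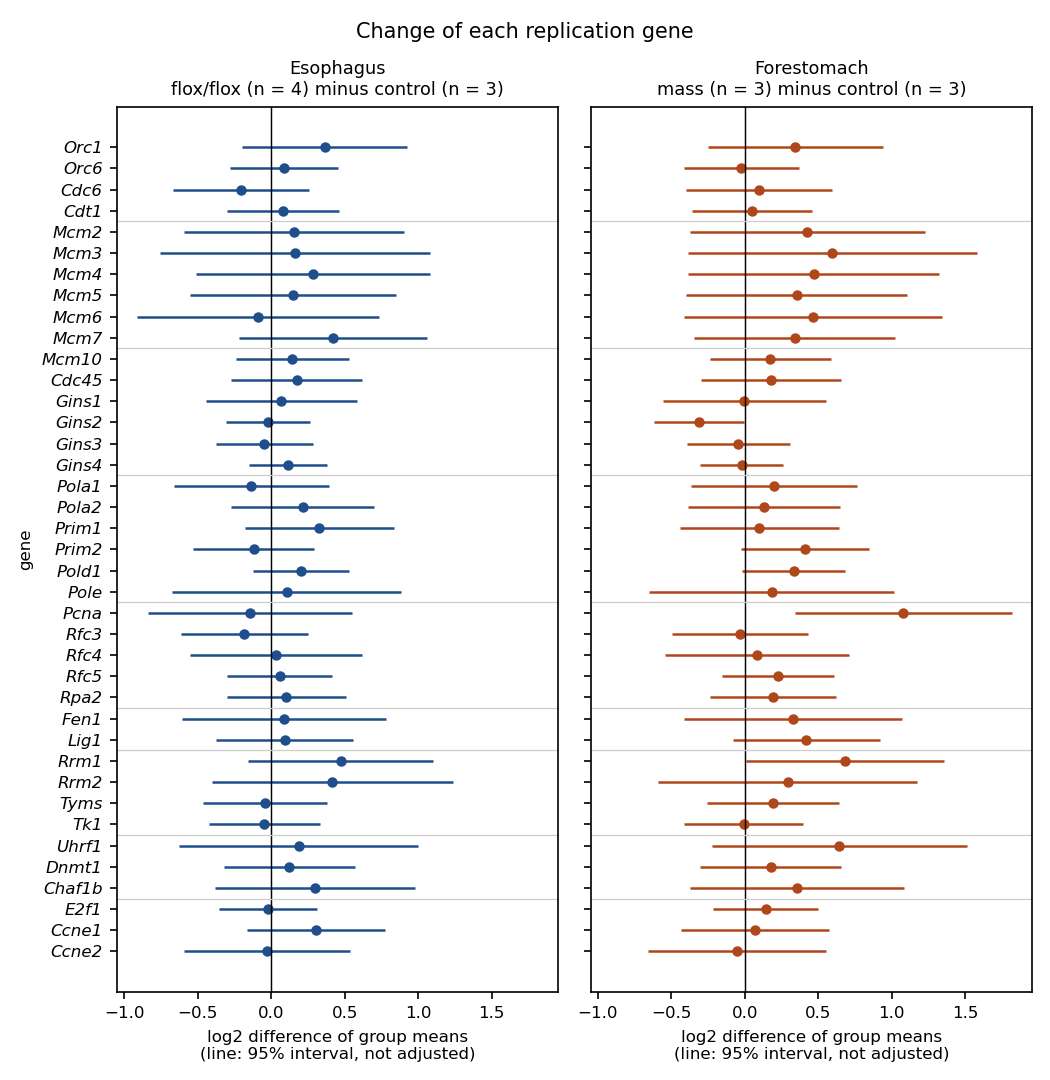
Log2 difference between flox/flox and control for each of the 39 genes in esophagus (left) and forestomach (right). Points are differences of group means and lines their 95% intervals from limma, not adjusted; Pcna in the forestomach, at 1.08 with the probe set used, is the point farthest from 0.

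**Figure D3:**
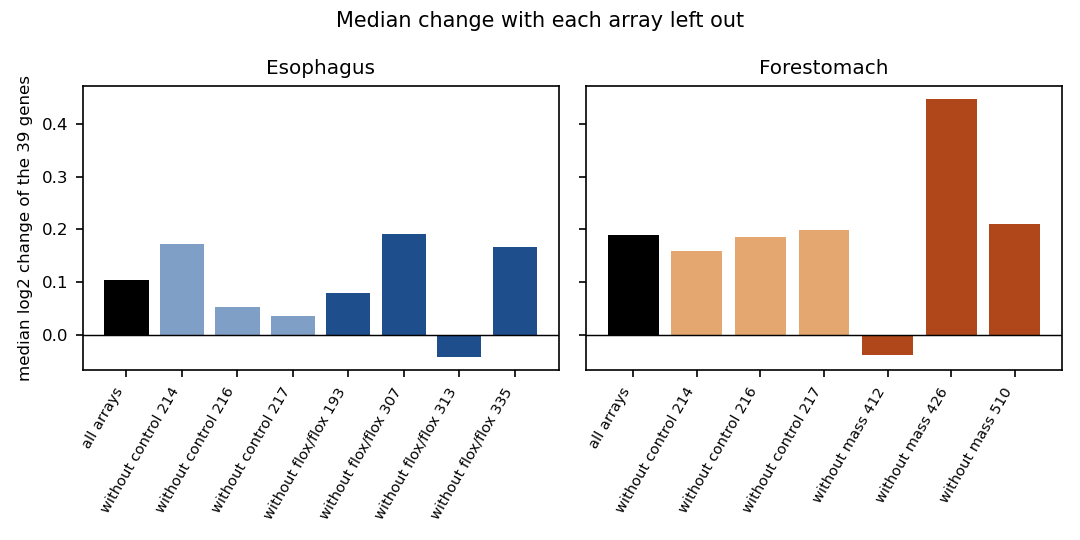
Bars give the median log2 change of the 39 genes with all arrays and with each array of the tissue left out. The median falls from 0.10 to -0.04 without flox/flox 313 and from 0.19 to -0.04 without mass 412, and rises to 0.45 without mass 426.

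The change in the forestomach minus that in the esophagus was called for 0 of 39 members by limma (0.139% of all genes, 0.0819% higher and 0.0567% lower). It had a median of 0.08, with 27 of 39 above 0 (48.5% of all genes). At an unadjusted p under 0.05 there was 1 member, Pcna (1.22, SE 0.46, adjusted p = 0.367), against 10.5% of all genes (2.87% higher). With the other Pcna probe set that difference was 0.39 (adjusted p = 0.772), and 0 members had an unadjusted p under 0.05. The genotype comparisons in the 2 tissues use control arrays of the same animals.

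Among origin licensing genes, Orc1, the ATPase subunit of the origin recognition complex, was 4.96, 4.43 and 4.68 in control esophagus 214, 216 and 217, and 4.94, 4.69, 5.61 and 4.97 on flox/flox arrays 193, 307, 313 and 335. In forestomach it was 4.90, 4.95 and 5.23 on control arrays 214, 216 and 217, and 5.73, 4.76 and 5.63 in masses 412, 426 and 510. Animal 313 and masses 412 and 510 were high and the groups overlapped. The esophagus change was 0.36 (SE 0.26, limma adjusted p = 0.888) and the mass change 0.34 (SE 0.27, adjusted p = 0.492). Orc6, another subunit of that complex, was 7.53, 7.48 and 7.55 in control esophagus 214, 216 and 217, 7.65, 7.56, 7.85 and 7.37 on flox/flox arrays 193, 307, 313 and 335, 7.30, 7.18 and 7.36 in control forestomach 214, 216 and 217, and 7.74, 7.06 and 6.99 in masses 412, 426 and 510. Mass 412 alone was above the forestomach controls and the other 2 masses lay below them. Cdc6 and Cdt1, which load the helicase, ranged from 6.04 to 7.14 and from 6.47 to 7.29 over all arrays.

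The 6 subunits of the MCM helicase were high and low on the same arrays. Their mean was 8.70, 7.28 and 7.86 in masses 412, 426 and 510 and 7.42, 7.53 and 7.57 in control forestomach 214, 216 and 217. In esophagus it was 7.67, 7.10, 8.28 and 7.32 on flox/flox arrays 193, 307, 313 and 335, and 7.96, 7.18 and 7.10 on control arrays 214, 216 and 217. Mass 412, esophagus 313 and control esophagus 214 were thus high. All 6 changes were above 0 in masses (0.34 to 0.60) and 5 of 6 in flox/flox esophagus (-0.09 to 0.42), and none passed the test (smallest adjusted p = 0.466 and 0.888).

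Mcm6, whose promoter letters are printed above, was 8.58, 7.60 and 7.61 in control esophagus 214, 216 and 217 and 7.86, 7.14, 8.59 and 7.77 on flox/flox arrays 193, 307, 313 and 335. Forestomach values were 7.81, 7.67 and 7.78 on control arrays 214, 216 and 217 and 9.05, 7.70 and 7.91 in masses 412, 426 and 510. Control 214 matched flox/flox 313 in esophagus, and mass 412 stood more than 1 log2 unit above the other masses. The esophagus change was -0.09 (SE 0.38, adjusted p = 0.998) and that in masses 0.46 (SE 0.40, adjusted p = 0.537).

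Mcm7, a subunit whose gene also hosts a microRNA cluster, was 7.84, 7.59 and 7.21 in control esophagus 214, 216 and 217 and 8.24, 7.51, 8.41 and 7.70 on flox/flox arrays 193, 307, 313 and 335. The forestomach levels were 7.58, 7.71 and 7.75 on control arrays 214, 216 and 217 and 8.69, 7.36 and 8.01 in masses 412, 426 and 510. Flox/flox 193 and 313 were above every control, and 307 and 335 were not. Mcm2, Mcm3, Mcm4 and Mcm5 ranged over all arrays from 7.17 to 8.79, 6.60 to 8.56, 6.62 to 8.43 and 7.03 to 8.69, each with its highest value in mass 412.

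**Figure D4:**
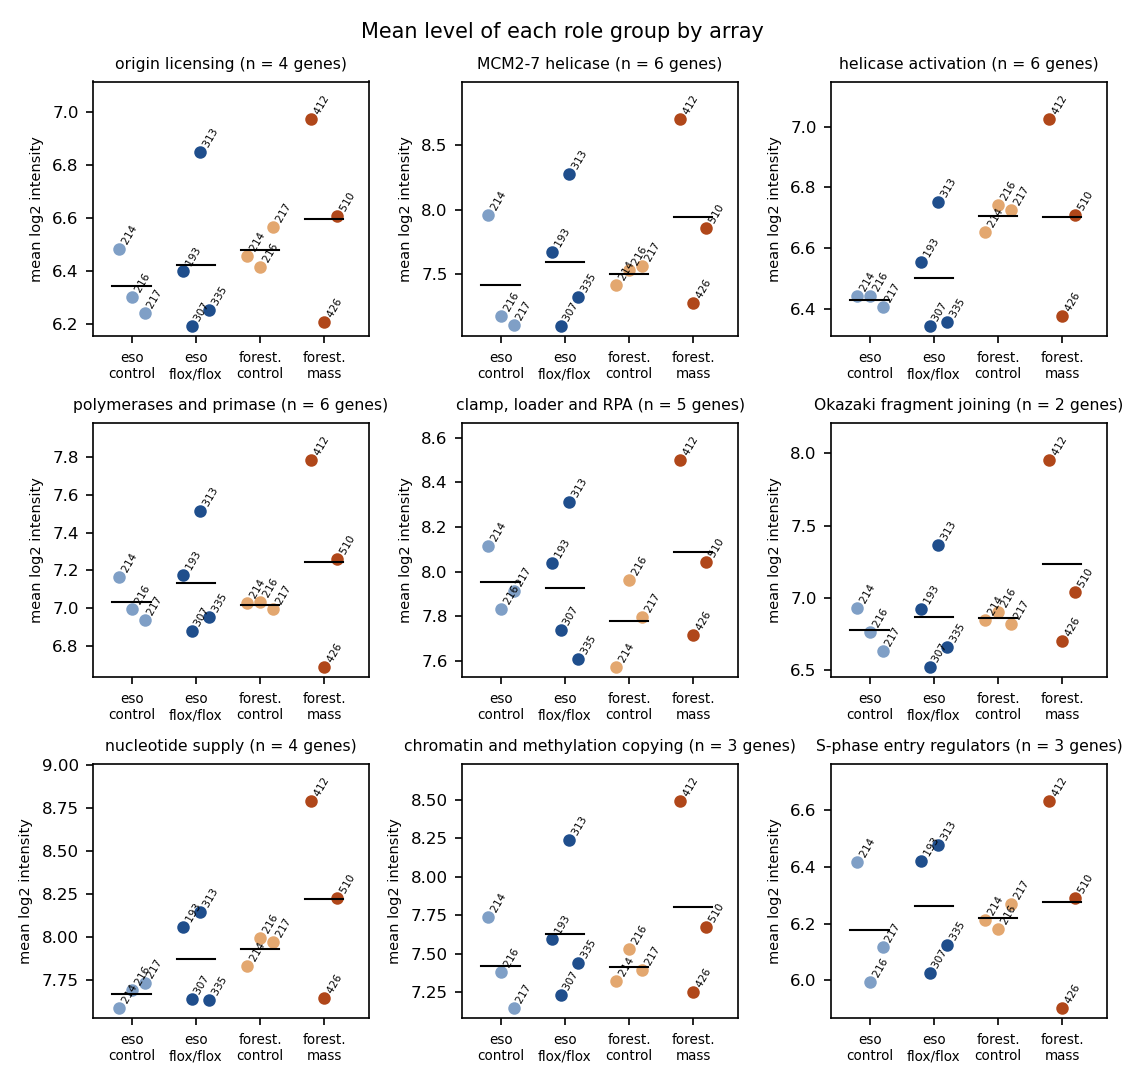
Mean log2 intensity of each role group on every array, labelled by animal, with the group mean as a line. Mass 412 is the highest mass and 426 the lowest in all 9 panels, and 313 is the highest flox/flox esophagus in all 9.

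The 6 genes that switch the helicase on had a median difference of 0.09 in the esophagus and -0.01 in masses, and none passed the test. Cdc45, which joins MCM and GINS into the active helicase, was 6.61, 6.75 and 6.52 in control esophagus 214, 216 and 217 and 6.77, 6.62, 7.19 and 6.60 on flox/flox arrays 193, 307, 313 and 335. In forestomach the levels were 6.90, 6.98 and 6.93 on control arrays 214, 216 and 217 and 7.57, 6.58 and 7.21 in masses 412, 426 and 510. Masses lay on both sides of the controls, whose own range was narrow.

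Gins2, a subunit of GINS, was 7.55, 7.40 and 7.46 in control forestomach 214, 216 and 217 and 7.35, 6.94 and 7.18 in masses 412, 426 and 510. The groups did not overlap. The difference was -0.31 (SE 0.14), short of the threshold (limma adjusted p = 0.194, and 0.113 to 0.427 over the alternatives). Groups did not overlap, with masses lower, for 1 member (2.56%) against 17.5% of all genes. In esophagus it was 7.26, 7.21 and 7.11 on control arrays 214, 216 and 217 and 7.28, 7.04, 7.44 and 6.95 on flox/flox arrays 193, 307, 313 and 335. Gins1, Gins3 and Gins4 ranged from 5.09 to 6.39, 5.99 to 6.66 and 6.96 to 7.49, with mass changes of -0.00, -0.04 and -0.02.

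Among the polymerases, Prim1, the catalytic primase subunit that lays down RNA primers, was 7.71, 7.58 and 7.71 in control esophagus 214, 216 and 217 and 7.91, 7.81, 8.35 and 7.93 on flox/flox arrays 193, 307, 313 and 335. It was the only member whose esophagus groups did not overlap: 1 member (2.56%) was higher without overlap, against 4.18% of all genes, and 0 lower, against 6.1%. Its change of 0.33 (SE 0.23) missed the threshold (adjusted p = 0.888). In forestomach it was 7.65, 7.77 and 7.62 on control arrays 214, 216 and 217 and 8.23, 7.05 and 8.05 in masses 412, 426 and 510, with mass 426 below the controls and the others above.

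Prim2, the large primase subunit, and Pold1, the catalytic subunit of polymerase delta, differed by 0.41 (SE 0.20, adjusted p = 0.232) and 0.33 (SE 0.16, limma adjusted p = 0.226) in masses, neither past the threshold. Pold1 was 7.33, 6.88 and 7.48 in masses 412, 426 and 510 and between 6.89 and 6.90 in control forestomach. Pola1, Pola2 and Pole, subunits of polymerases alpha and epsilon, ranged from 6.77 to 8.04, 6.76 to 7.81 and 5.95 to 7.68, and each was highest in mass 412.

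Pcna, the clamp that tethers polymerases to DNA, had the largest difference between masses and control by the probe set used, though not by its other probe set, with which Rrm1, Uhrf1 and Mcm3 had larger ones. Forestomach values were 8.99, 9.74 and 9.35 on control arrays 214, 216 and 217 and 10.81, 9.98 and 10.53 in masses 412, 426 and 510. All 3 masses stood above all 3 controls, which held for 2 members, Pcna and Lig1 (5.13%, against 10.3% of all genes). The difference was 1.08 (SE 0.34, 95% interval 0.34 to 1.82, 2.11-fold) and missed the threshold (limma adjusted p = 0.0644). Over the alternatives its adjusted p ranged from 0.0292 to 0.217. It fell below 0.05 without flox/flox esophagus 313 (0.0498) or 335 (0.0292), without mass 426 (0.0404) and with the stricter level filter (0.0432).

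In esophagus Pcna was 10.51, 9.89 and 10.27 on control arrays 214, 216 and 217 and 10.32, 10.02, 10.71 and 9.27 on flox/flox arrays 193, 307, 313 and 335, a difference of -0.14 (SE 0.32). Its other probe set gave a smaller change in masses, 0.52 (adjusted p = 0.182), from 9.07, 9.13 and 9.17 on control arrays 214, 216 and 217 to 10.17, 9.28 and 9.48 in masses 412, 426 and 510, again without overlap. RefSeq lists the pseudogenes Pcna-ps1 and Pcna-ps2, and the sources used here do not say which copies each probe set reads. The numbers of the other members' probe sets run in blocks by chromosome. That of the Pcna set used falls between Uhrf1 on chromosome 17 and Pola2 on chromosome 19. That of the other set falls between Mcm10 and E2f1 on chromosome 2, where Pcna lies. The set used may thus read a copy elsewhere, which was not tested, and the size of the Pcna difference is uncertain.

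No gene of the clamp loader or of the single-strand binding protein passed the test. Rfc3, a loader subunit, was 7.16, 6.91 and 7.06 in control esophagus 214, 216 and 217 and 7.04, 6.53, 7.19 and 6.67 on flox/flox arrays 193, 307, 313 and 335. The forestomach levels were 6.96, 7.21 and 7.07 on control arrays 214, 216 and 217 and 7.53, 6.78 and 6.84 in masses 412, 426 and 510. Rfc4, Rfc5 and Rpa2 ranged from 6.56 to 7.80, 8.23 to 9.0 and 6.75 to 7.44.

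Lig1, the ligase that seals Okazaki fragments, was 7.49, 7.46 and 7.42 in control forestomach 214, 216 and 217 and 8.5, 7.53 and 7.60 in masses 412, 426 and 510. The masses lay above the controls, 426 and 510 only just, and the change of 0.42 (SE 0.23) did not pass (adjusted p = 0.291). In esophagus Lig1 was 7.47, 7.40 and 7.16 on control arrays 214, 216 and 217 and 7.46, 7.19, 7.77 and 7.33 on flox/flox arrays 193, 307, 313 and 335. Fen1, the nuclease that trims the fragments, ranged from 5.86 to 7.40.

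Rrm1, the large subunit of ribonucleotide reductase, which makes deoxynucleotides, had the largest esophagus change of a member. It was 8.86, 8.67 and 8.80 in control esophagus 214, 216 and 217 and 9.78, 9.0, 9.46 and 8.76 on flox/flox arrays 193, 307, 313 and 335. The change was 0.47 (SE 0.29, adjusted p = 0.837), and flox/flox 335 lay inside the control range. In forestomach Rrm1 was 8.58, 8.84 and 8.80 on control arrays 214, 216 and 217 and 10.10, 8.75 and 9.43 in masses 412, 426 and 510 (0.68, SE 0.31, adjusted p = 0.197).

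Rrm2, the small subunit of the same enzyme, differed by 2.19 between masses 412 and 426, the widest gap of any member. It was 9.38, 7.18 and 8.51 in masses 412, 426 and 510 and 7.88, 8.24 and 8.09 in control forestomach 214, 216 and 217, so mass 426 lay below the controls. Tyms and Tk1, which make thymidine nucleotides, ranged from 6.89 to 7.74 and 7.25 to 8.10. The 2 probe sets of Tk1 gave mass changes of -0.01 and -0.04. The number of the Tk1 set used falls between Gins2 on chromosome 8 and Dnmt1 on chromosome 9, while Tk1 lies on chromosome 11.

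Of the genes that copy DNA methylation and chromatin, Dnmt1, the maintenance methyltransferase, was 8.80, 8.84 and 8.70 in control esophagus 214, 216 and 217 and 9.03, 8.66, 9.17 and 8.75 on flox/flox arrays 193, 307, 313 and 335. In forestomach the levels were 8.48, 8.52 and 8.57 on control arrays 214, 216 and 217 and 9.31, 8.31 and 8.47 in masses 412, 426 and 510. Mass 412 alone lay above the controls.

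Chaf1b, a subunit of the assembly factor that deposits histones behind the fork, was 7.0, 6.48 and 6.17 in control esophagus 214, 216 and 217 and 6.87, 6.40, 7.49 and 6.63 on flox/flox arrays 193, 307, 313 and 335. In forestomach it was 6.88, 7.29 and 6.99 on control arrays 214, 216 and 217 and 8.06, 6.81 and 7.37 in masses 412, 426 and 510. Uhrf1, which brings Dnmt1 to newly copied DNA, was 8.10, 6.63 and 7.18 in the same masses and 6.60 to 6.77 in control forestomach, a change of 0.64 (SE 0.40, adjusted p = 0.359).

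Among regulators of S-phase entry, Ccne1, the gene of cyclin E1, was 7.33, 6.90 and 7.01 in control esophagus 214, 216 and 217 and 7.75, 6.95, 7.34 and 7.5 on flox/flox arrays 193, 307, 313 and 335. Forestomach values were 7.49, 7.39 and 7.41 on control arrays 214, 216 and 217 and 7.77, 6.98 and 7.76 in masses 412, 426 and 510. Unlike most members it was highest in 193, not 313, among esophagus arrays. E2f1, the activator of the programme, ranged only from 6.00 to 6.64, and Ccne2, of cyclin E2, from 4.44 to 5.52.

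Members with E2F letters in their promoter window differed between masses 412 and 426 by a median of 1.27 (11 genes) and those without by 0.79 (21 genes). Between flox/flox esophagus 313 and 307 the medians were 0.90 and 0.55. These are descriptions of 4 arrays, chosen after their values were seen, with no test. The widest gap between the masses, 2.19 in Rrm2, was in a member without the letters. Ccne2, Gins1, Gins2, Gins4, Mcm4, Pole and Prim2 had no window and are in neither group.

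Control esophagus 214 departed from the shared pattern. Its 6 MCM genes each stood above both other control esophagus arrays, by a median of 0.95, and Mcm4 was higher by 1.03. Genes of mitosis were lower on that array than on both others in 17 of 17, by a median of -0.76. Of all genes tested, 30.1% were highest and 44.7% lowest in array 214 among the 3 controls. The mean of the 17 mitosis genes was 6.65 in 214, the lowest of the 13 arrays, against 7.41 in both 216 and 217. Mass 412 and flox/flox 313 were the highest at 8.04 and 8.06. Mki67, the gene of the proliferation marker Ki-67, was 7.68, 8.54 and 8.43 in esophagus controls 214, 216 and 217. Over all 39 members, 32 were higher in 214 than the mean of the other controls (40.5% of all genes), and Mcm10, Rrm2 and Tyms were among the 7 that were not. The forestomach of the same animal had the lowest MCM mean of its group, 7.42. Array 214 of the esophagus also had the highest fibroblast and matrix markers (mean 10.90, 8 of 8 above log2 5) and high muscle markers, and their part in this was not tested.

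**Figure D5:**
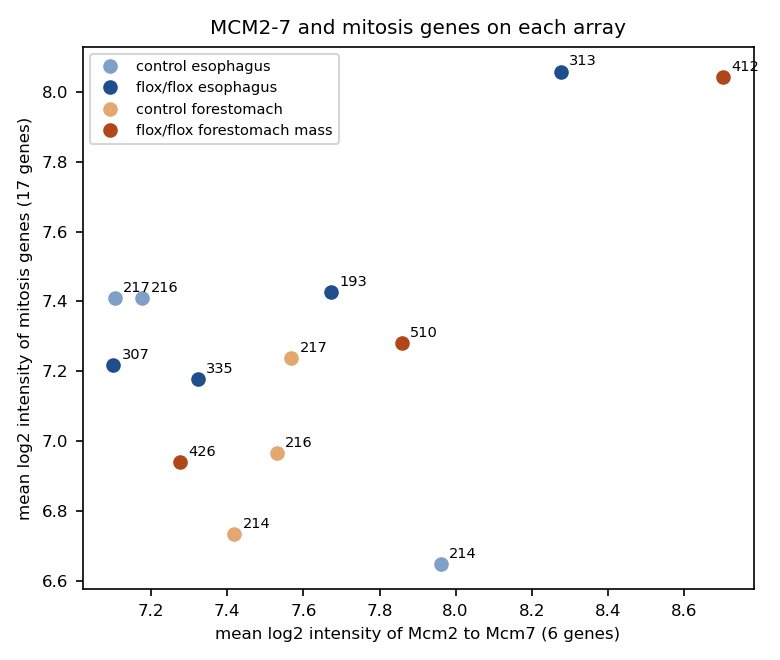
Mean log2 intensity of Mcm2 to Mcm7 (x axis, 6 genes) and of mitosis genes (y axis, 17 genes) on each array, coloured by group and labelled by animal. Flox/flox 313 and mass 412 are high on both axes, and esophagus control 214 is at 7.96 on the x axis with the lowest mitosis mean, 6.65.

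Control forestomach and control esophagus differed in 0 of 39 members by limma over all arrays, without a block for the animal. Of all genes 6.67% did (3.51% higher and 3.16% lower in forestomach). At an unadjusted p under 0.05 there were 3 members, Mcm10, Rrm2 and Pcna (7.69%, against 21.6%), and 25 of 39 differences lay above 0 (53% of all genes). Fitted on the control arrays alone, also without a block, 4 of 37 members tested were called (15.5% of all genes). These were Mcm10, Gins1 and Rrm2, higher in forestomach, and Pcna, lower. The limma adjusted p of Rrm2 was 0.00504 there. The fit over all arrays pools the spread of masses. The SD of Rrm2 was 1.10 in masses, 0.21 in control esophagus and 0.18 in control forestomach. The count of 0 thus depended on the arrays fitted as well as on the block. The 3 animals gave both tissues. With the animal as a random block 2 members, Mcm10 and Rrm2, were called higher in forestomach, where 16.8% of all genes were called, and with the animal as a fixed block over the 6 control arrays 3 of 37 members tested were (Mcm10 and Rrm2 higher and Pola1 lower, against 16.9%). Rrm2 was 7.88, 8.24 and 8.09 in forestomach and 6.84, 7.26 and 7.07 in esophagus of 214, 216 and 217. The difference was 1.01 (SE 0.40, adjusted p = 0.172 over all arrays without the block and 0.0454 with the random block). Mcm10, which helps start the fork, was 6.25, 6.42 and 6.52 in forestomach and 5.67, 6.05 and 5.81 in esophagus of the same animals (0.55, SE 0.19, adjusted p = 0.111 and 0.0242). Each was higher in forestomach in 3 of 3 animals. Pcna was lower in forestomach on every control array, by -0.86 (SE 0.34, adjusted p = 0.165), and its other probe set gave -0.27. Groups did not overlap for 12 members, 8 higher (20.5%, against 18% of all genes) and 4 lower (10.3%, against 19.3%).

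Of 54 further replication genes listed by name (other licensing, fork, nucleotide, chromatin and E2F family genes), 52 were tested. None passed in the esophagus by limma (1 at an unadjusted p under 0.05, median 0.08). In masses 1 passed, in the lower direction (8.4% of all genes), with a median of 0.09. It was Pole3, a histone-fold subunit of polymerase epsilon, at 8.07, 8.22 and 8.59 in masses 412, 426 and 510 and 8.73, 8.76 and 8.86 in control forestomach 214, 216 and 217 (-0.49, SE 0.14, adjusted p = 0.0403). Between control tissues 1 passed, higher in forestomach (3.51% of all genes): Cdc25a, the phosphatase that activates S-phase cyclin kinases, at 8.11, 7.72 and 7.71 in forestomach and 7.15, 7.13 and 7.12 in esophagus of 214, 216 and 217 (0.71, SE 0.17, adjusted p = 0.0284). The mean of the 53 on the array was highest in mass 412 (7.66) and flox/flox 313 (7.56) and lowest in mass 426 (7.04). The calls of Pole3 and Cdc25a come from the fit over all arrays and were not read under the other settings.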

How the data were processed

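Intensity values on a linear scale were made by the authors with GCRMA, per the submitters' processing notes, 1 array per sample. Its version is not given here. Values under 1 would have been set to 1 (the lowest was 3.28), and log2 was taken. Of 34729 probe sets, 21633 named 1 gene and were used, and the highest-mean probe set stood for a gene. Group means of all 13 arrays entered 1 limma 3.58.1 model (R 4.3.3; lmFit, eBayes; 9 residual degrees of freedom) over 15875 genes with log2 above 5 on at least 3 arrays, with Benjamini-Hochberg adjustment and a threshold of 0.05. The procedure was tested on simulated data in which all groups shared 1 spread per gene. That test does not cover the wider spread of masses. The members and lists were chosen with earlier results of these data known.

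All members are named. Values on every array are given for the member with the highest mean and with the largest esophagus change in each role group, and from the wider lists for called genes. Gins2 in full, Rrm2, Mcm10, Uhrf1, Pold1, Mki67 and the contrasts of single arrays were chosen after their values were seen. Control animals are paired across tissues by their number. Over all tested genes, deviations from group means correlated at 0.315 to 0.401 within an animal and at -0.425 to 0.129 between animals. Over the 39 members they correlated at -0.052 to -0.008 within an animal and at -0.131 to 0.099 between animals, so the members alone did not show the pairing. Sequences are from RefSeq (GRCm38.p6).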

Additional observations from a re-analysis of the deposited data

How the results depend on the processing

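Settings tried were no filter, a filter at log2 above 7, median centring, quantile normalization, averaging of probe sets per gene, only the arrays compared, array weights, the animal as a block, eBayes with trend and robust, and leaving out each array; 2 were added after seeing the data (the other probe set of Pcna and Tk1, and the esophagus without 3 muscle-rich arrays). The esophagus comparison and the difference of the genotype changes called 0 members under every setting run. With trend and robust estimation each comparison called 0 members. Of all genes, 0.0126% were called in the esophagus, 11.1% in masses, 0.353% for the difference and 6.98% between control tissues. At an unadjusted p under 0.05 there were 2 members in masses (24.7% of all genes), 1 for the difference (10.5%) and 3 between control tissues (21.4%). Masses against control called 1 of 28 members tested (Pcna; 3.57%, against 21.4% of all genes) with the filter at log2 above 7, and 0 to 4 with 1 array left out (4, or 10.3%, without mass 426, against 11.6%). Control forestomach against control esophagus called 4 of 37 with only the arrays compared (10.8%, against 15.5% of all genes), 3 of 39 with array weights (7.69%, against 23.9%), 2 of 39 with the animal as a random replicate block (5.13%, against 16.8%), 3 of 37 with it as a fixed replicate block (8.11%, against 16.9%) and 0 to 1 with 1 array left out (1, Rrm2, without mass 412 or 426, against 9.81% and 8.7% of all genes). The blocks changed no other call of a member. The median change ranged with 1 array left out from -0.04 to 0.19 in the esophagus, -0.04 to 0.45 in masses, -0.17 to 0.29 for their difference and 0.00 to 0.14 between control tissues, and was 0.40 in the esophagus without the 3 muscle-rich arrays. The cause was not tested. With 3 or 4 arrays a group the median SE of a member was 0.22 in the esophagus and 0.24 in masses. Changes of that size could not be resolved, and some larger differences also fell short of the threshold. In masses Rrm1 at 0.68 (limma adjusted p = 0.197) and Pcna at 1.08 (0.0644) did not pass in the main fit.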

Other observations

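Of 7 cell cycle inhibitor genes listed by name, 6 were measured, and 1 passed in masses against control forestomach by limma, in the lower direction, as did 8.4% of all genes. Cdkn1b, the gene of the cyclin kinase inhibitor p27, was 8.33, 8.45 and 8.23 in masses 412, 426 and 510 and 8.82, 8.64 and 8.60 in control forestomach 214, 216 and 217. It fell by 0.35 (SE 0.09, adjusted p = 0.0345, lower in 3 of 3 masses than in every control). This call was not read under the other settings. Fitted on the forestomach arrays alone, 2.95% of all genes were called, against 10.7% in the fit over all arrays. Mass 426, with the lowest replication genes, had the highest Cdkn1b of the masses. The lowest was in 510, and not in 412 with the highest replication genes. Of the 6 inhibitors, 4 had a mass difference above 0 (51% of all genes), with a median of 0.15. In the esophagus Cdkn1b differed by 0.08 (SE 0.09, adjusted p = 0.967).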
